A study of Homo sapiens with 2 samples.

Results

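The FOX, SOX, GATA and KLF genes encode 4 families of sequence-specific transcription factors, and SMARCA4 ChIP-seq at their transcription start sites (TSSs) is described here in parental and EZH2 inhibitor-resistant (EIR) cells. Members were the protein-coding genes whose symbol is FOX with a letter and a number, SOX with a number, GATA1 to GATA6, or KLF with a number. This gave 88 of 20176 protein-coding genes, namely 45 FOX, 19 SOX, 6 GATA and 18 KLF genes. Of the 12896 regions in the 2 deposited lists, 46 lay within 1 kb of a TSS of a member, measured from the closer edge. The parental cells were TOV21G, an ovarian clear cell carcinoma line with mutated ARID1A, and the EIR cells were clone 3, which grew out of the same line while GSK126, an inhibitor of the methyltransferase EZH2, was raised from 5 to 20 μM. Both carried a FLAG epitope at the endogenous SMARCA4 locus, and tagged cells were expanded from single colonies. Each condition had 1 library, so the values compare 2 libraries and have no replicate check.

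SMARCA4 (BRG1) is an ATPase of the SWI/SNF complex, which slides or evicts nucleosomes. ARID1A is a subunit of the same complex. FOX proteins bind DNA through a forkhead domain, SOX proteins through an HMG box that bends DNA, and GATA and KLF proteins through zinc fingers. Members of the first 3 families include pioneer factors and regulators of organ development, and KLF proteins bind GC-rich or CACCC-type elements and act as activators or repressors of growth and differentiation genes.

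The sequences below are from the strand of each gene in the GRCh37 reference, without annotated exons. Capitals mark exact matches, on either strand, to a GC box or to a motif of one of the families. The GC box, the element read by SP and many KLF proteins, was searched as GGGCGG. The forkhead motif, taken from the core of the site that most FOX proteins prefer, was searched as TGTTTAC. For the erythroid-type zinc finger factors the letters searched were AGATAA, and for the KLF factors the beta-globin type of element was used, written here as CACACCC. The HMG box proteins were given the letters ACAAAG, which is the core of the site that SOX proteins share, and the leucine zipper dimers of AP-1 were given TGACTCA. The last pair matched none of the printed stretches. FOXO1 (chr13:41240779-41241028), SOX12 (chr20:305946-306195) and KLF13 (chr15:31618788-31619037) are shown as the members of their families with the most parental tags. For each of these the stretch is the 250 bases before a TSS. GATA2 (chr3:128205920-128206169) stands for the weak GATA regions, and SOX15 (chr17:7492020-7492269) is part of the EIR-higher region with the largest fold. KLF16 (chr19:1863579-1863828) and KLF14 (chr7:130418968-130419217), again the 250 bases before a TSS, had the largest folds and were added after their values were seen.
FOXO1: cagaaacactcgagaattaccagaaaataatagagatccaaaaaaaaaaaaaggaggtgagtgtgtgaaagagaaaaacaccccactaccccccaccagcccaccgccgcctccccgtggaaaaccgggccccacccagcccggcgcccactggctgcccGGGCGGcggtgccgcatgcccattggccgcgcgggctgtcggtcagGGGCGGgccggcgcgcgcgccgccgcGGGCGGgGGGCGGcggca
SOX12: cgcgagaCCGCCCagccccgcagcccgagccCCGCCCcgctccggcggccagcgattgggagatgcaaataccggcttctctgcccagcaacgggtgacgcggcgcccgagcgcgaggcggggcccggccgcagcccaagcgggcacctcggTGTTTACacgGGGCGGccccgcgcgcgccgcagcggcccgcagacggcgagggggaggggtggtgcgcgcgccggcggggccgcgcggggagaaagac
KLF13: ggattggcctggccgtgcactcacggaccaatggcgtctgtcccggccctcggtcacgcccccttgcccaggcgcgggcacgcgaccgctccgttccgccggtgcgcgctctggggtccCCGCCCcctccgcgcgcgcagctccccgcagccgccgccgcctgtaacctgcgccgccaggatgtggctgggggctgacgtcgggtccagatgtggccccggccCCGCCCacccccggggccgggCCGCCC
KLF16: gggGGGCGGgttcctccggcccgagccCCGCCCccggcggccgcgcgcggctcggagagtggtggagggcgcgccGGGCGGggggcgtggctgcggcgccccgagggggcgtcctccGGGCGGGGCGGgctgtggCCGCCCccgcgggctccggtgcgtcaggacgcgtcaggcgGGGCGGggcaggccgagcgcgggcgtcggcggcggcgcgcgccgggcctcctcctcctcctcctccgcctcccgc
KLF14: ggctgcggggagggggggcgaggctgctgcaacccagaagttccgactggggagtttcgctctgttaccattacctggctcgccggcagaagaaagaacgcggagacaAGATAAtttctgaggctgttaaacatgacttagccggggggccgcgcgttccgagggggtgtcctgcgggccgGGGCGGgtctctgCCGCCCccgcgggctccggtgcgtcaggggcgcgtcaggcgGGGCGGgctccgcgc
GATA2: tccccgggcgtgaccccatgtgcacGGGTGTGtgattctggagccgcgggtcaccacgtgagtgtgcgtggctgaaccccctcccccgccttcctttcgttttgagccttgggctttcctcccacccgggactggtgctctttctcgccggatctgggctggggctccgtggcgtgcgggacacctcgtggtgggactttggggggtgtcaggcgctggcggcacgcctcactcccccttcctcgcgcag
SOX15: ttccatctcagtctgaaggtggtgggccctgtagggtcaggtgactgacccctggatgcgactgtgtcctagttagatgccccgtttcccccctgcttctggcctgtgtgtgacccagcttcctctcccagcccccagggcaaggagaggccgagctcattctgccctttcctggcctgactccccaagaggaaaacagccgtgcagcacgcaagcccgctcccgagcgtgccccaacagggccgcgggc
The FOXO1, SOX12, KLF13, KLF16 and KLF14 stretches, each before a TSS, hold between 3 and 7 GC boxes, with overlapping matches counted separately. The GATA2 and SOX15 stretches, taken from within their regions, hold 0, but the SOX15 region has 1 GC box outside the printed bases. The SOX12 stretch also holds the forkhead motif, the KLF14 stretch the GATA motif, and the GATA2 stretch the KLF motif. Of the KLF14 stretch 65 bases and of the SOX12 stretch 205 bases lie in the region, and the other stretches lie in their regions whole.

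The parental library had about 25600000 tags (aligned reads) and the EIR library about 35000000, and the authors scaled EIR tags to the parental total, so that 1 EIR tag counts as 0.733. Each list was called with the other library as control and holds only regions that differ by HOMER, 10792 parental-higher and 2104 EIR-higher. A gene without a region may therefore carry SMARCA4 at a like level in both libraries, or at a level too low to be called. Since regions were chosen for their fold, folds are given as descriptions, with exact Clopper-Pearson 95% confidence intervals that cover counting error only. Fewer cells with SMARCA4 at a site and less SMARCA4 per cell cannot be told apart in such libraries.

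Of the 88 members, 45 (51.1%) had a region within that distance, against 24.6% of all protein-coding genes. In 43 members the region was parental-higher, where 23.2% of all protein-coding genes had such a region. The other 2 of the 88, SOX8 and SOX15, had an EIR-higher region, a share near the 1.96% of all protein-coding genes. No member had both. By family, 20 of 45 FOX, 10 of 19 SOX, 3 of 6 GATA and 12 of 18 KLF genes had a region. The share without a region was thus 55.6% for FOX, 47.4% for SOX, 50% for GATA and 33.3% for KLF genes, compared with 75.4% for all protein-coding genes. Among other developmental factor families, 16 of 39 HOX genes (41.0%) and 1 of 13 TBX genes (7.69%) had a region. Of these, 2 HOX genes and the TBX gene had an EIR-higher region. No test was made of the difference between families.

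**Figure D1:**
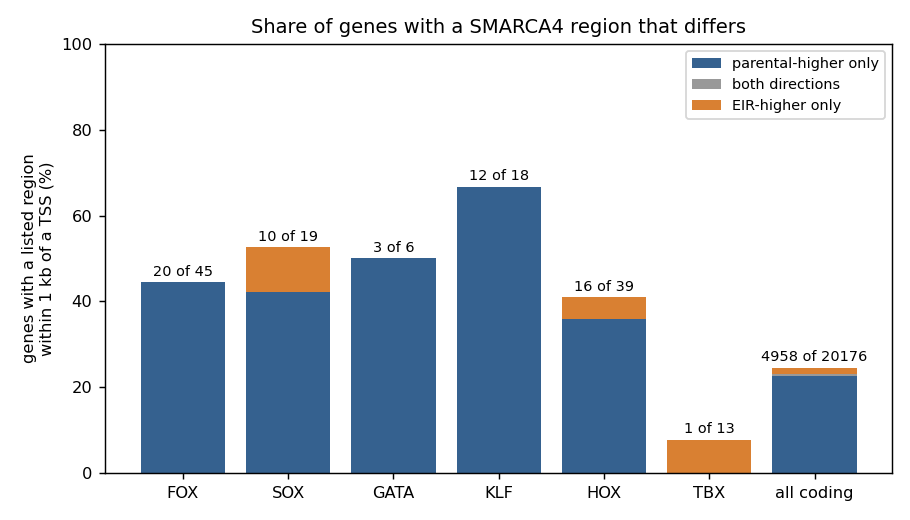
Share of genes (%) in each family with a listed region at most 1 kb from a TSS, and the number of genes above each bar. Colors give the direction of the regions: KLF genes had the highest share, 66.7%. EIR-higher regions occurred at 2 SOX, 2 HOX and 1 TBX gene, and at 1.96% of all protein-coding genes.

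Summed over regions, the members held 2727 parental tags against 1032.4 scaled EIR tags in 43.3 kb, a ratio of 2.64 (interval 2.48 to 2.82). The 21 FOX regions held 1446 parental and 533.9 scaled EIR tags (ratio 2.71, interval 2.48 to 2.97). The 12 KLF regions held 847 and 306.4 (2.76, interval 2.46 to 3.12). The 3 GATA regions held 55 and 15.4 (3.57, interval 2.13 to 6.22). The 10 SOX regions held 379 and 176.7, and their ratio of 2.15 (interval 1.82 to 2.53) was the lowest of the 4 families. With the 8 parental-higher SOX regions alone the ratio was 2.61 (interval 2.19 to 3.12). The intervals of all 4 families overlapped with either value. Over all protein-coding genes the ratio was 2.30 with both directions pooled, and 2.45 (interval 2.44 to 2.47) with parental-higher regions alone. The latter is the like value for FOX, KLF and GATA, which had parental-higher regions only, and for the SOX ratio of 2.61. Per kb, parental tags were densest in KLF regions (70.7 tags per kb) and FOX regions (64.0), close to the 66.9 of all protein-coding regions, and sparser in SOX (52.5) and GATA regions (36.7). The SOX and protein-coding densities pool both directions. The SOX value is lowered by the EIR-higher regions of SOX15 and SOX8, which held 2 and 4 parental tags.

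All 21 FOX regions were parental-higher, with folds from 2.0 to 4.95. FOXO1, a forkhead factor that insulin and AKT signaling keep out of the nucleus, had the widest region (chr13:41238675-41241801, 3126 bp) with 246 parental and 123.1 scaled EIR tags, a fold of 2.0 (interval 1.64 to 2.45). Of the 4668 parental-higher regions at protein-coding TSSs 7 others had at least as many parental tags, but its fold was the smallest of the family. FOXK1, which represses genes together with SIN3, had 112 parental and 27.1 scaled EIR tags at chr7:4721368-4722870 (fold 4.13, interval 2.82 to 6.16). FOXC1, a factor of eye and vessel development, had 97 and 40.3 tags at chr6:1609889-1611441 (fold 2.41, interval 1.71 to 3.41). Thus at like numbers of parental tags FOXK1 kept fewer EIR tags than FOXC1, although their intervals overlapped. FOXD1, a marker of kidney stroma, had 90 and 19.8 tags at chr5:72742460-72744478 (fold 4.55, interval 2.93 to 7.27). FOXN4, which acts in retinal progenitors, had the largest fold of the family, 4.95 (interval 2.21 to 12.5), from 29 and 5.9 tags at chr12:109747308-109747934. The interval for FOXN4 is wide because it rests on 8 EIR tags.

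Both FOXK genes and both FOXC genes had a region. FOXK2, the paralog of FOXK1, had 60 parental and 18.3 scaled EIR tags, and FOXC2, which acts in lymphatic development, had 47 and 19.8. FOXP4 and FOXP1 encode repressors of lung and neural development. FOXP4 had 96 and 24.2 tags (fold 3.97). FOXP1 was the sole member with 2 regions within 1 kb of its TSSs: one at chr3:71632223-71632723, beside the canonical TSS, with 35 and 16.9 tags (fold 2.08, interval 1.19 to 3.68), and one at chr3:71113592-71114434, over an inner TSS, with 61 and 28.6 tags (fold 2.13, interval 1.40 to 3.28). The folds at both FOXP1 sites were nearly equal. FOXA1, a pioneer factor of endoderm and hormone-responsive epithelia, had 79 and 25.7 tags (fold 3.08) in a region that also lies within 1 kb of a TTC6 TSS.

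FOXM1, a driver of mitotic genes, had 25 parental and 10.3 scaled EIR tags (fold 2.44), and its region is shared with the TSSs of RHNO1 and TULP3. FOXL2, the granulosa cell factor of the ovary, had 22 and 5.9 tags (fold 3.75), the fewest parental tags in the family. The remaining FOX members with a region, FOXD2, FOXE1, FOXF2, FOXJ2, FOXN2, FOXN3, FOXO6 and FOXQ1, had between 40 and 68 parental tags and folds from 2.14 to 3.25. FOXQ1, FOXF2 and FOXC1 are neighbours on chromosome 6, and all 3 had a region with folds of 2.87, 3.05 and 2.41. In the paralogous cluster on chromosome 16, FOXC2 alone of FOXF1, FOXC2 and FOXL1 had one.

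**Figure D2:**
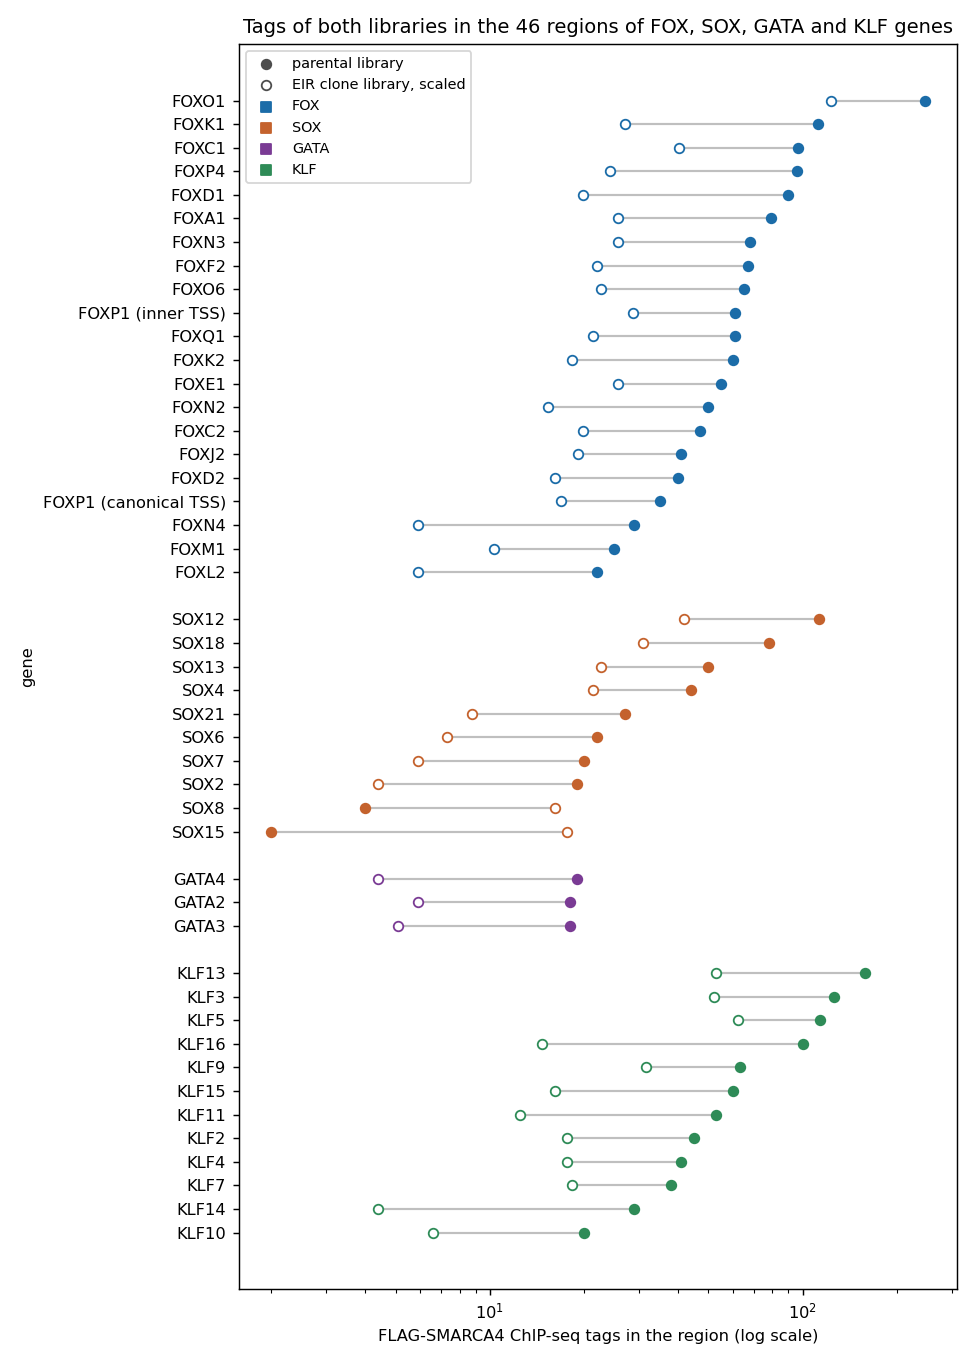
FLAG-SMARCA4 ChIP-seq tags (log scale) in each of the 46 regions, with filled points for the parental library and open points for the EIR clone library scaled to the parental total, and no error bars are drawn because each condition has 1 library. In 44 regions the parental point lies to the right, and at SOX8 and SOX15 the order is turned.

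Of the SOX genes with a region, 8 were parental-higher and 2 EIR-higher. SOX12, of the SOXC group of neuronal and mesenchymal factors, had the most parental tags, 113 against 41.8 scaled EIR tags, at chr20:305991-307209 (fold 2.70, interval 1.95 to 3.79). SOX18, a regulator of lymphatic endothelium, had 78 and 30.8 tags at chr20:62679335-62681025 (fold 2.53, interval 1.72 to 3.78). SOX13, of the SOXD group, had 50 and 22.7 tags at chr1:204042036-204042726 (fold 2.20, interval 1.38 to 3.56). The largest parental-higher fold was at SOX2, a pluripotency factor, with 19 and 4.4 tags at chr3:181429567-181430067 (fold 4.32, interval 1.66 to 13.2). SOX2 is also one of the members with the fewest parental tags, and its region also lies within 1 kb of a TSS of the noncoding SOX2-OT. SOX4, SOX6, SOX7 and SOX21 had between 20 and 44 parental tags and folds from 2.07 to 3.41. Of these, SOX7 had 20 and 5.9 tags at chr8:10587942-10588442 (fold 3.41, interval 1.44 to 8.95). SOX21 had 27 and 8.8 tags at chr13:95363639-95364265 (fold 3.07, interval 1.50 to 6.65).

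The EIR-higher SOX regions were narrow and rested on few tags. SOX15, the sole SOXG gene, had 2 parental tags and 24 EIR tags, or 17.6 after scaling, at chr17:7491895-7492395. This is an EIR over parental ratio of 8.80 (interval 2.18 to 76.8). The region lies 995 bp downstream of the nearest TSS and within the intron of the canonical transcript. SOX8, which belongs to the SOXE group with the neural crest factors SOX9 and SOX10, had 4 parental and 22 EIR tags, or 16.1 after scaling, at chr16:1032919-1033419 (EIR over parental ratio 4.03, interval 1.37 to 16.1). This region begins 833 bp downstream of a TSS, in the first intron of the canonical transcript. It lies wholly in exon sequence annotated outside the canonical SOX8 transcript. A further EIR-higher region lay at the 3′ end of SOX8, centred 5.38 kb from the canonical TSS, with 4 parental and 16.9 scaled EIR tags. The next, centred at 16.3 kb, had 6 and 24.2. All 3 listed regions in SOX8 and the 20 kb around it were thus EIR-higher. Neither gene had a region over a TSS, and no SOX8 or SOX15 region was counted when only canonical TSSs were used.

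The 3 GATA regions were the weakest set, each 500 bp wide with 18 or 19 parental tags. GATA2, a factor of blood stem cells, had 18 parental and 5.9 scaled EIR tags at chr3:128205734-128206234 (fold 3.07, interval 1.27 to 8.16). GATA3, which directs T cells and luminal breast epithelium, had 18 and 5.1 at chr10:8094197-8094697 (fold 3.51, interval 1.40 to 9.94). GATA4, a factor of heart, endoderm and gonad, had 19 and 4.4 at chr8:11550345-11550845 (fold 4.32, interval 1.66 to 13.2). The 3 intervals overlapped throughout, so no order of the folds can be given. None of the regions covered a TSS: GATA2 and GATA4 regions began 525 and 210 bp downstream of a TSS, and the GATA3 region ended 870 bp upstream of one, near GATA3-AS1. From the canonical TSS, the GATA2 region began 5810 bp downstream, and the regions of GATA3 and GATA4 lay 1954 and 10866 bp upstream. With canonical TSSs alone, 0 of 6 GATA genes had a region.

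The KLF genes had the highest share with a region, and all 12 regions were parental-higher. KLF13, a repressor that recruits SIN3A, had the most parental tags, 158 against 52.8 scaled EIR tags, at chr15:31618701-31620473 (fold 2.99, interval 2.25 to 4.01). KLF3, which represses through CtBP, had 126 and 52.0 at chr4:38664653-38666163 (fold 2.42, interval 1.80 to 3.29). KLF5, a growth factor-responsive activator of epithelia, had 114 and 62.3 at chr13:73632903-73634411. Its fold of 1.83 (interval 1.37 to 2.45) was the smallest of all members. KLF16 had nearly as many parental tags as KLF5, 100, but only 14.7 scaled EIR tags at chr19:1862776-1864054. This is a fold of 6.82 (interval 4.19 to 11.6), the largest parental-higher fold of any member. Of the 643 parental-higher regions at protein-coding TSSs with 100 or more parental tags, 4 had a fold at least as large, KLF16 included. KLF14 had 29 and 4.4 tags at chr7:130418288-130419032 (fold 6.59, interval 2.69 to 19.4). KLF11 had 53 and 12.5 at chr2:10183454-10184080 (fold 4.25, interval 2.42 to 7.84).

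KLF9, KLF10, KLF11, KLF13, KLF14 and KLF16 form the group that binds SIN3A. All 6 had a parental-higher region, against 12 of 18 KLF genes and 23.2% of all protein-coding genes. Their median fold was 3.64, with a range from 2.0 (KLF9) to 6.82, against a median of 2.54 over all parental-higher protein-coding regions. KLF10 and KLF14 had only 20 and 29 parental tags, and regions with few tags are listed only at larger folds. Among the activators, KLF2, KLF4, KLF5 and KLF7 had a region with folds from 1.83 to 2.56, and KLF1 and KLF6 did not. Of the CtBP-binding group KLF3 had one, and KLF8 and KLF12 did not. KLF15, a metabolic regulator of liver and muscle, had 60 parental and 16.1 scaled EIR tags (fold 3.72). These groups were set after the values were seen, and their difference was not tested. KLF2, a regulator of endothelium, KLF4, a pluripotency and epithelial factor, and KLF7 had between 38 and 45 parental tags, and KLF10 had 20.

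Because a region with few tags enters the list only at a large fold, folds were set against protein-coding regions with like numbers of parental tags. Regions with 15 to 20 parental tags had folds of at least 2.73 and a median of 3.31, and the 6 members among them, GATA2, GATA3, GATA4, SOX2, SOX7 and KLF10, lay between 3.03 and 4.32. With 21 to 50 tags the median was 2.58, and 6 of 16 member regions lay above it. With 51 to 99 tags the median was 2.31, and 12 of 15 member regions lay above it, with a median of 2.87. With 100 or more tags the median was 2.37, and 5 of 7 member regions lay above it. Across members with a region the median fold, taken as parental over EIR, was 2.87 (FOX 2.87, SOX 2.62, GATA 3.51, KLF 2.78), and across all protein-coding genes with a region it was 2.47. Over parental-higher regions alone, the medians were 2.93 for members and 2.54 for all protein-coding genes.

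**Figure D3:**
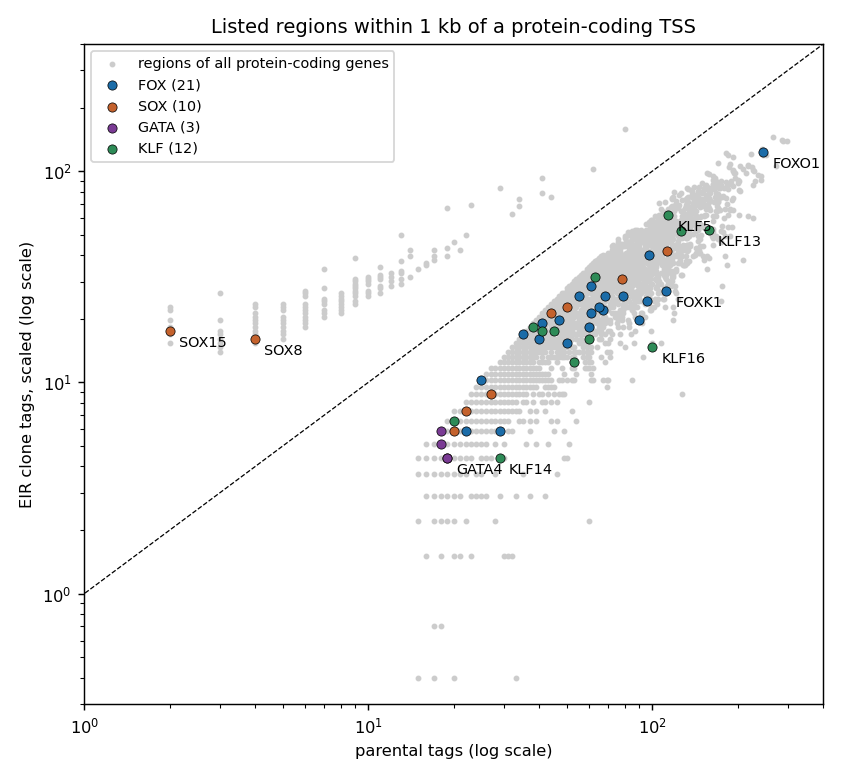
Parental tags (x axis) against scaled EIR tags (y axis), both on log scales, for listed regions within 1 kb of any protein-coding TSS (grey) and for members (colored by family), with a dashed line at equal tags. The empty band around the line is where regions were not listed, FOXO1 lies near the upper end with 246 and 123.1 tags, and KLF16 lies low in its range with 100 and 14.7.

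Regions covered a TSS in 31 of the 45 members (68.9%), compared with 71.4% for all protein-coding genes with a region. The share was 11 of 12 for KLF and 15 of 20 for FOX, but 5 of 10 for SOX and 0 of 3 for GATA. KLF9 was the KLF gene without TSS coverage, with a region that began 842 bp downstream and lay wholly in exon sequence. The center of the nearest region lay downstream of the TSS in 31 members (68.9%) and upstream in 14, close to the 64.6% downstream over all protein-coding genes with a region. For SOX genes it was downstream in 9 of 10, and SOX7 was the exception. Member regions had a median width of 750 bp and 37.0% were wider than 1 kb, compared with 686 bp and 23.4% for protein-coding regions. Of the 46 regions, 21 also lay within 1 kb of a TSS of another gene, most often a lncRNA (17 regions), so tags there cannot be assigned to the member alone.

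**Figure D4:**
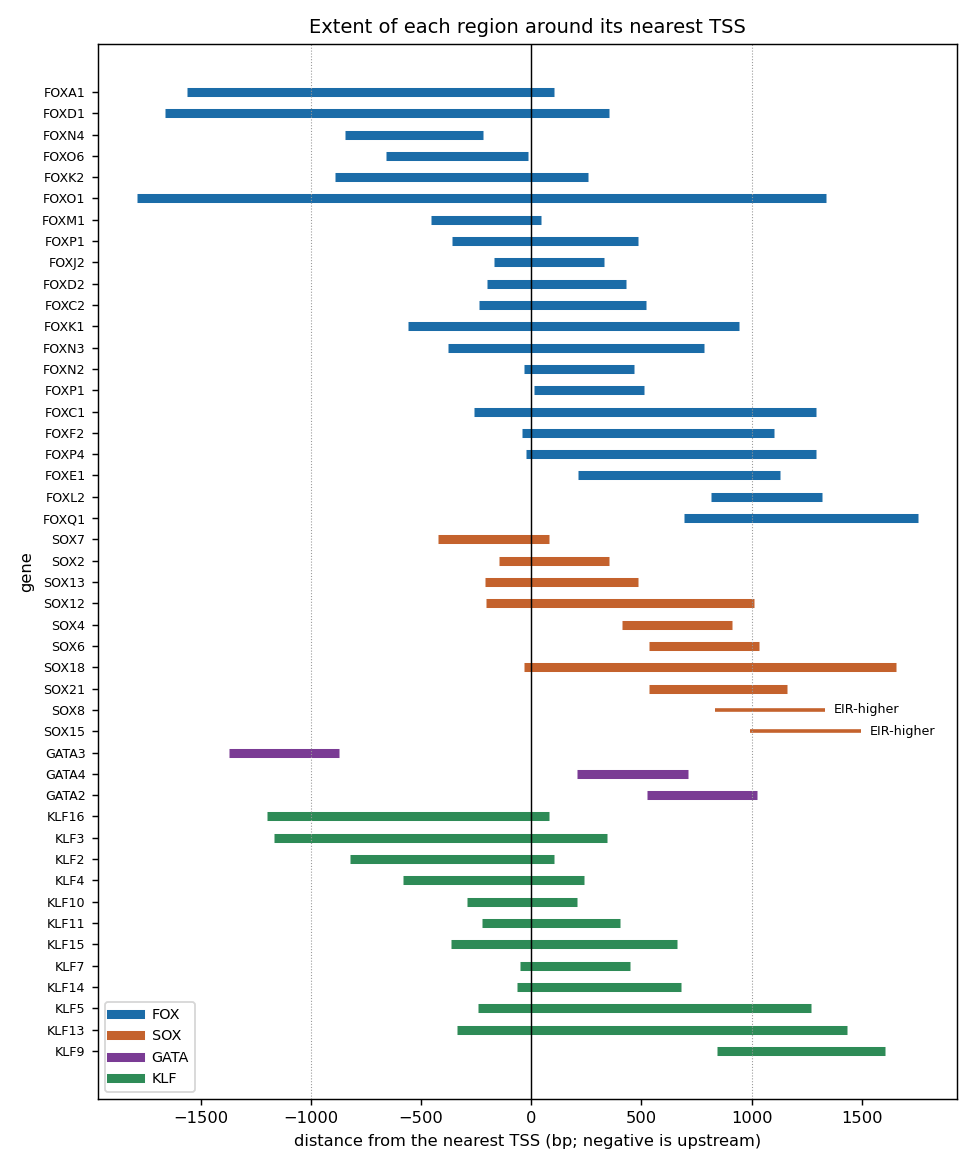
Extent of each of the 46 regions around its nearest TSS, in bp along the direction of transcription, with dotted lines at 1000 bp to either side. Thin lines mark the EIR-higher regions, most FOX and KLF regions cross the TSS, and the 3 GATA regions and the EIR-higher SOX regions do not.

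No region was found for 43 members. The FOX genes included FOXA2, FOXA3, FOXB1, FOXB2, FOXD3, FOXD4, FOXE3, FOXF1, FOXH1, FOXI1, FOXI2, FOXI3, FOXJ1, FOXJ3, FOXL1, FOXL3, FOXN1, FOXO3, FOXO4, FOXP2, FOXP3, FOXR1, FOXR2 and FOXS1. The SOX genes were SOX1, SOX3, SOX5, SOX9, SOX10, SOX11, SOX14, SOX17 and SOX30. The GATA genes were GATA1, GATA5 and GATA6, and the KLF genes were KLF1, KLF6, KLF8, KLF12, KLF17 and KLF18. For 20 of the 43 no listed region lay within 100 kb of a TSS. Just inside the 1 kb limit were SOX15, at 995 bp, and GATA3, at 870 bp. Just outside were FOXD3, a neural crest and pluripotency factor, at 1253 bp (18 parental and 5.1 scaled EIR tags) and FOXF1, a lung mesenchyme factor, at 1302 bp (4 and 19.1, EIR-higher). FOXO3, a relative of FOXO1, followed at 1599 bp (46 and 15.4) and KLF6 at 2717 bp (21 and 5.1). With a limit of 5 kb, 49 members (55.7%) had a region, against 29.2% of all protein-coding genes.

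Members with a region had mostly CpG-rich promoters (40 of 45), like all protein-coding genes with a region (4199 CpG-rich and 749 other promoters). A promoter was called CpG-rich when the 1 kb centred on the canonical TSS had at least 55% G+C and a CpG observed over expected ratio of at least 0.65. By this measure 67 of 88 members (76.1%) and 56.6% of protein-coding genes were CpG-rich. Among CpG-rich promoters 40 of 67 members (59.7%) had a region, against 37.3% of protein-coding genes. Among the others the figures were 5 of 21 members (23.8%) and 8.68%. All 20 FOX genes with a region were CpG-rich, and 0 of the 8 FOX genes with other promoters had one. For SOX genes 7 of 13 CpG-rich and 3 of 6 other promoters had a region. The measure describes the canonical TSS, which need not be the TSS near the region. The SOX6 region lay 248413 bp from the canonical TSS and had 69.9% G+C and a CpG ratio of 0.819. The SOX4 region had 65.5% and 0.969, and the SOX15 region 67.1% and 0.444. The regions of KLF7 (72.9%, 0.857) and KLF9 (69.9%, 1.04) were also at genes of the other class. The CpG-rich share was 82.2% in FOX, 68.4% in SOX, 83.3% in GATA and 66.7% in KLF genes. The part of composition in the differences between families, and between members and all protein-coding genes, was not tested.

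**Figure D5:**
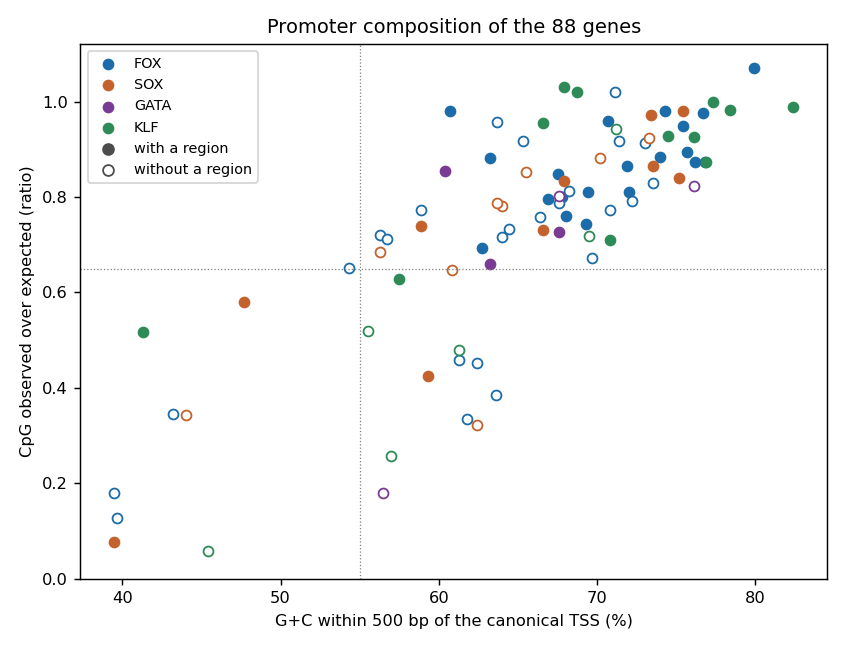
G+C content (%) and CpG observed over expected ratio of the promoter of each of the 88 genes, filled where the gene had a region and open where it had none, with dotted lines at 55% and 0.65. Filled FOX points all lie in the upper right field, where 17 FOX genes without a region lie as well.

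In the central 500 bp of the regions the GC box occurred in 42 of 46 (91.3%), compared with 77.0% of the 5051 regions at protein-coding TSSs. The other motifs were found in few regions. The forkhead motif was in 1 region (2.17%, against 2.59% of protein-coding regions), at FOXP1, and the GATA motif in 1 (2.17% against 7.58%), at FOXK2. The SOX motif was in 4 (8.70% against 19.7%), at FOXA1, FOXP4, KLF7 and KLF11. The KLF motif was in 2 (4.35% against 9.90%), at GATA2 and SOX4, and the AP-1 motif in 1 (2.17% against 4.63%), at FOXA1. The median region was 72.9% G+C in members and 70.2% in protein-coding genes. A match describes letters only, and no match says nothing of the factor.

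Within the genes and 20 kb to either side, 24 of the 88 members had further listed regions beyond the 1 kb limit (27.3%), against 30.2% of all protein-coding genes, a share near that background. Of the 32 further regions of members 6 (18.8%) were EIR-higher, compared with 16.1% of the further regions of all protein-coding genes. The 6 lay at 5 members (5.68%, against 7.05% of all protein-coding genes). A few of the 32 are the TSS regions of neighbours, as for FOXD2 beside FOXE3 and FOXC2 beside FOXL1. KLF6, an activator with no region at its TSS, had 4 parental-higher regions, of which the strongest, centred 20.4 kb downstream of its canonical TSS, had 111 parental and 52.8 scaled EIR tags. FOXK1 had 2 inside the gene, centred at 64.3 and 65.9 kb, with 100 and 42.5 tags and with 40 and 16.9 tags. FOXO6 had one at 20.6 kb with 82 and 22.7 tags (fold 3.61), which is more parental tags than at its TSS (65).

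The EIR-higher regions lay at SOX8 (2), FOXF1, FOXF2, FOXH1 and KLF12. The FOXF2 region, 3.81 kb downstream of the TSS, had 4 parental and 16.9 scaled EIR tags, while the region over the FOXF2 TSS was parental-higher with 67 and 22.0. The paralog FOXF1 had 4 and 19.1 tags in a region centred upstream of its canonical TSS. KLF12, a CtBP-binding repressor, had one region of each direction inside the gene, with 25 and 8.8 tags and with 4 and 16.1 tags. These EIR-higher regions hold 4 to 6 parental tags each, so their folds rest on few counts.

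Genes that work with the 4 families were also examined, from a list of 33 that was set with earlier results of these data known. Of these, 21 (63.6%) had a region within 1 kb, against 24.6% of all protein-coding genes, and all 21 had a parental-higher one, against 23.2%. The groups of the list are small, and their counts are given as a description. The Groucho corepressors TLE1 to TLE4, which FOX proteins recruit, had a region in 4 of 4. TLE2 had 77 parental and 16.9 scaled EIR tags (fold 4.57), and the strongest TLE3 region had 68 and 39.6 (fold 1.72). Of the KLF corepressors SIN3A, CTBP1 and CTBP2 had a region and SIN3B did not. SIN3A had 134 and 75.5 tags (fold 1.77). The 6 KLF genes whose products bind SIN3A had folds from 2.0 to 6.82, but KLF10 and KLF14 had only 20 and 29 parental tags. The difference was not tested. Of the GATA cofactors ZFPM1 (113 and 28.6 tags, fold 3.95), LDB1 and LMO2 had a region, and TAL1 and ZFPM2 did not. The SP genes, the closest relatives of the KLF genes, had a region in 2 of 9, SP3 and SP6. All 5 of CTNNB1, LEF1, TCF7, TCF7L1 and TCF7L2, the beta-catenin and TCF genes that SOX proteins modulate, had a region. TCF7 had a parental-higher region (87 and 17.6 tags) and, over another TSS, an EIR-higher one (3 and 16.9). The coactivator genes EP300 and CREBBP both had a parental-higher region.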

How the data were processed

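Single-end 75 bp reads of FLAG ChIP from cells fixed with 2 crosslinkers and digested with MNase were aligned by the authors with Bowtie (0.12.9 in the submitters' processing notes) to hg19, and regions were called with HOMER. The deposited lists give, per region, the parental tag count, the EIR tag signal scaled to the parental total, the fold (ratio of both) and a Poisson p-value of at most 0.0001. EIR tag counts were recovered from the step of 0.733. Regions were joined to TSSs of GENCODE release 44 on GRCh37. The nearest region represents a gene. Intervals are Clopper-Pearson. With 1 library per condition no test was made. Alternatives varied the window, the TSSs, the fold, the p-value and the scaling. The RNA-seq of the study was not analysed here.

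All members with a region are named. Some items withheld from this text are not reported here. Full values are given for GATA and EIR-higher members, FOXP1 and, per family, the 3 largest folds and the 3 members with most parental tags. Members and lists were chosen with earlier results of these data known. The join and intervals were tested on simulated data. Python 3.11.15, pandas 2.3.3, scipy 1.17.1 and pysam 0.24.0 were used.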

Additional observations from a re-analysis of the deposited data

How the results depend on the processing

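Of 119 values recomputed under alternatives, 92 stayed within the main interval or within 1.5 times the main count. For the median fold, the interval used was that of the member nearest the median, so it is not an interval of the median itself. A turn of direction could hardly occur, since counts have none and the ratios rest on regions listed by direction. The lists cannot gain regions that were not called. With the EIR library scaled 1.5 times higher, 25 members kept a region (23 parental-higher). The pooled ratios were taken over all regions of the main result, so the scaling alone fixed their change. They became 1.81 (FOX), 1.43 (SOX) and 1.84 (KLF). Scaled 1.5 times lower, they were 4.06, 3.22 and 4.15, and 1 EIR-higher member remained. EIR-higher members numbered 0 with a 500 bp window, with distance from the centre, with the 5′ end of each gene only and with canonical TSSs only, 1 at a p-value of at most 1e-06 or with TSSs of protein-coding transcripts only, and 4 with 5 kb. SOX members with a region numbered 6 with 500 bp or the stricter p-value, and GATA members 1 under both, and 0 with the 5′ end or the canonical TSS. The SOX pooled ratio was 2.56 with 500 bp, 2.61 from the centre, and 2.59 with the 5′ end or the canonical TSS. Over whole regions instead of the central 500 bp, 21.7% of member regions held the SOX motif, against 28.3% of protein-coding regions. The forkhead motif was then in 6.52% of member regions against 4.95%, so its order turned. The GATA, KLF and AP-1 motifs stayed below their protein-coding shares, and the GC box stayed above. The canonical and protein-coding TSS alternatives were chosen after seeing the data. No paired analysis was possible because each condition has 1 library, and for the same reason no replicate could be left out. Few tags limit the GATA, SOX2, SOX8 and SOX15 folds, whose intervals are wide.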
